A study of Homo sapiens with 4 samples.

Results

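The genes described here are the class I and class II histone deacetylases, HDAC1 to HDAC10, chosen by name. All 10 were found by symbol among the 44591 genes of the files, and all 10 are among the 19233 genes marked protein-coding. RNA-seq was performed on 4 untreated replicates of HaCaT, a spontaneously immortalized keratinocyte line of human skin, so there is 1 condition and no group to compare it with. The labels give Dulbecco's modified Eagle medium with 12% fetal bovine serum, 37 °C and 5% CO2 for every replicate, while the study's methods give a lower serum percentage. Total RNA was extracted with Trizol and treated with DNase I before Illumina library preparation. HaCaT is a single cultured line, so the levels below stand for that line and not for epidermis. The study calls the 4 replicates biological repeats, and neither it nor the labels say whether they came from separate cultures, so each SD and p-value measures only the spread between these libraries.

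Histone deacetylases remove acetyl groups from lysines of histones and other proteins, and in chromatin their activity generally goes with repressed transcription. Class I and class II enzymes use a zinc ion for this reaction, in contrast to the sirtuins (class III), which consume NAD+. Class I enzymes (HDAC1, HDAC2, HDAC3 and HDAC8) are mainly nuclear, and the first 3 work within large corepressor complexes. Class IIa enzymes (HDAC4, HDAC5, HDAC7 and HDAC9) shuttle between nucleus and cytoplasm, bind MEF2 transcription factors and leave the nucleus when phosphorylated and bound by 14-3-3 proteins. Class IIb holds HDAC6, a largely cytoplasmic deacetylase of tubulin, and HDAC10, which deacetylates polyamines. In epidermis, HDAC1 and HDAC2 are known to act together in the p63-dependent programme of basal keratinocytes.

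Class IIa is set apart from the other classes at a residue of the catalytic pocket, which is a tyrosine in class I and class IIb and a histidine in class IIa, a change that leaves class IIa enzymes with little activity on acetyl-lysine. The coding stretches around this codon were read from the transcripts of GENCODE release 29 (build GRCh38), 1 annotated protein-coding transcript per gene, and are shown to set members of class IIa beside those of class I and class IIb. Each runs 5′ to 3′ over 30 bases, with the codon of that residue in capitals.
HDAC1: ggaggcggtggtTACaccattcgtaacgtt
HDAC2: ggaggaggtggcTACacaatccgtaatgtt
HDAC3: ggtggtggtggtTATactgtccgaaatgtt
HDAC7: ttggagggtggcCATgacctcacagccatc
HDAC4: ctcgagggaggcCACgacctgaccgccatt
HDAC6: ctagagggtggcTATaacctgacatccatc
HDAC10: ctggagggcggcTACcacctggagtcactg

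The HDAC1 codon is number 303 of 482 and lies on the plus strand at chr1:32330836-32330838, and that of HDAC2 is number 304 of 488 on the minus strand at chr6:113946078-113946080. In HDAC3 it is number 298 of 428 on the minus strand at chr5:141626220-141626222. The histidine codons are number 899 of 1014 in HDAC7 (minus strand, chr12:47785812-47785814) and number 976 of 1084 in HDAC4 (minus strand, chr2:239066782-239066784). HDAC6 has a pair of catalytic domains, and the stretch printed is from the later one, codon 782 of 1215 (plus strand, chrX:48822626-48822628). The HDAC10 codon is number 305 of 669 (minus strand, chr22:50248464-50248466), and in HDAC6 and HDAC10 the printed bases cross an exon junction. A tyrosine codon was also found in HDAC8 and in the earlier domain of HDAC6, and a histidine codon in HDAC5 and HDAC9.

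The files hold the number of reads counted on each gene and the length used for each gene. Levels are given as TPM, the count per kilobase of gene length scaled so that all protein-coding genes of a library sum to 1000000. TPM is per length, so a comparison between genes rests on the length used for each gene. The libraries held 73082279, 17056035, 19745170 and 19083836 counted reads in replicates 1 to 4. Replicate 1 stood apart, with 76.1% of its reads on protein-coding genes against 95.3% to 96.4% in the others. Mean levels of the HDAC genes and sirtuins, class ratios and paralog ratios are given with and without it. Means of markers and of the genes of the partner lists are given over all 4 replicates only. The 10 HDAC genes took between 10534 and 35438 reads per library in all. The lowest count of any member was 168, for HDAC8 in replicate 2 (95% Poisson interval 144 to 195), and the highest was 15331, for HDAC1 in replicate 1. The intervals given here account for counting error alone, because no molecular identifiers were reported and several reads may stem from 1 molecule.

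The labelled cell type was checked against marker genes. All 9 keratinocyte markers had a mean TPM above 1, led by KRT14 with 6847 and KRT5 with 3244, and TP63 had 71.2. Their summed TPM ranged from 11481 to 15310 across replicates. Of the markers of other cells, 2 of 7 for fibroblasts passed (summed TPM 5.20 to 9.70), 2 of 6 for melanocytes (3.74 to 9.16), 2 of 6 for leukocytes (11.4 to 52.6) and 0 of 4 for endothelium (0.859 to 2.36). TYR, PECAM1 and KDR were at 0 counts in every library, and PTPRC had 3 counts in replicate 1 and 0 elsewhere. Other markers of these lists did have reads, such as CD14 with 81 to 133 counts in every library, CDH5 with 21 to 46 in replicates 2 to 4, and VWF, DCN and LUM with 507, 186 and 172 in replicate 1. The largest part of the leukocyte sum was CD68, a lysosomal gene not restricted to leukocytes, with a mean TPM of 26.5.

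All 10 members were detected, taking detection as a mean TPM above 1, which 63.3% of all protein-coding genes passed. Each of the 10 was also above 1 TPM in every replicate. HDAC1 had the highest and HDAC3 the next highest level in all 4 replicates. The mean levels spanned from 214 TPM for HDAC1 to 5.43 TPM for HDAC4. The median over the 12165 detected genes was 24.5 TPM, and 4 members (HDAC1, HDAC3, HDAC7 and HDAC2) stood above it. Without replicate 1 the means were 185 ± 34.7 TPM for HDAC1, 83.1 ± 2.40 for HDAC3, 56.2 ± 17.7 for HDAC7, 36.7 ± 4.57 for HDAC2 and 23.5 ± 8.25 for HDAC10 (SD, n = 3). Those of HDAC6, HDAC5, HDAC9, HDAC8 and HDAC4 were then 14.1 ± 4.65, 12.9 ± 5.10, 8.13 ± 1.95, 7.78 ± 1.41 and 6.66 ± 2.15, so the order of the first 7 was as with all 4 replicates and HDAC9 stood above HDAC8. In bulk RNA, a level shared by all cells and a higher level in fewer cells cannot be told apart.

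**Figure D1:**
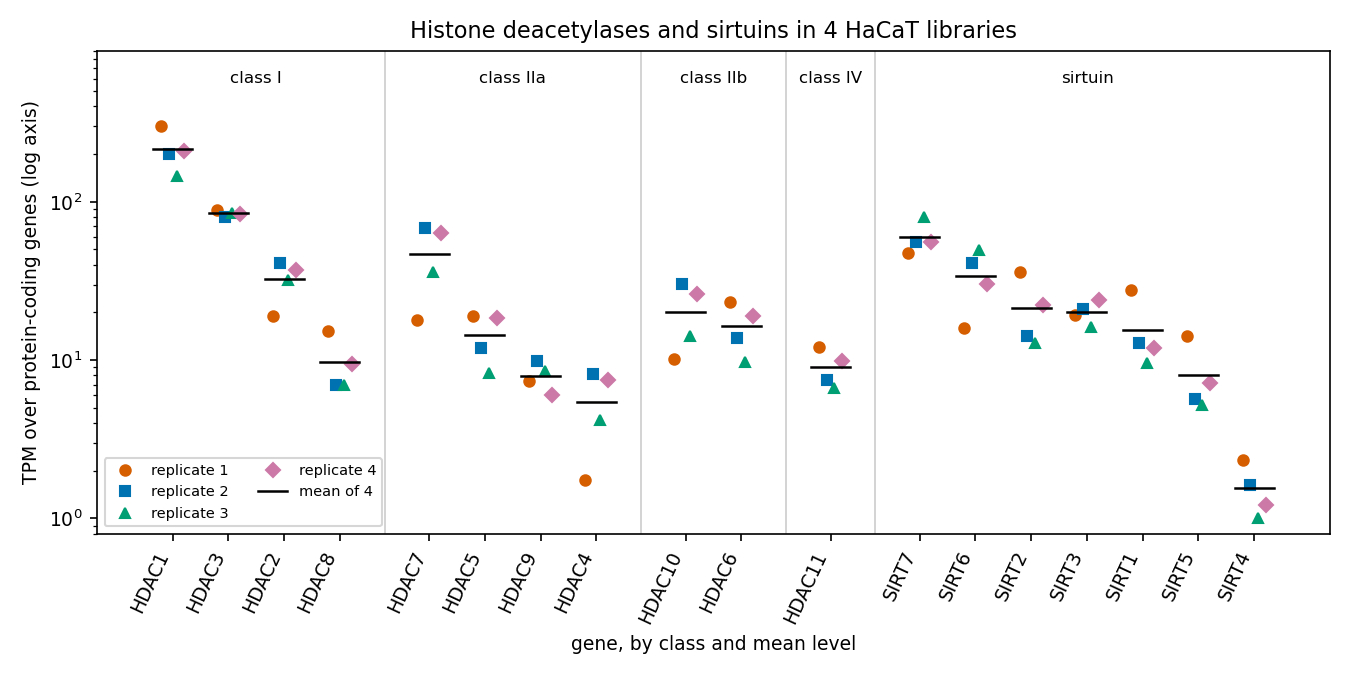
TPM over protein-coding genes (log axis) of the 10 class I and II histone deacetylases, with HDAC11 and the 7 sirtuins for scale, grouped by class and ordered by mean; each point is 1 replicate and each line the mean of 4. HDAC1 lies between 146 and 302 TPM, above all other genes shown in every replicate, and the 4 points of HDAC3 lie within 80.7 to 89.1.

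Class I held the most abundant transcripts. HDAC1 (chromosome 1, 32757708 to 32799224, plus strand, in the hg19 coordinates of the files) is a catalytic subunit of the NuRD, SIN3 and CoREST corepressors. Its TPM was 302, 200.05, 146 and 210.4 in the order of replicates 1 to 4, and averaged 214 ± 64.7 (SD, n = 4). Replicate 1 was highest and replicate 3 lowest, and without replicate 1 the range was 146 to 210.4. The mean exceeded that of 94.2% of detected genes. A pseudogene, HDAC1P2, could share reads with HDAC1, but it had at most 7 counts per library.

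HDAC3 (chromosome 5, 141000443 to 141016423, minus strand), the catalytic subunit of the NCoR complex, followed with 89.1, 80.7, 85.5 and 83.2 TPM, a mean of 84.6 ± 3.58 (SD, n = 4). Its coefficient of variation (CV, the SD as a percent of the mean) was 4.23%, and 0.206% of detected genes had a lower one, against a median CV of 37.8%. This closeness depended in part on the scaling of the libraries. With upper-quartile scaling the CV of HDAC3 was 12.9%, with median-of-ratios scaling 13.1%, and with TPM over all genes 37.6%. Between 5.78% and 24.7% of detected genes were then steadier.

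HDAC2 (chromosome 6, 114257320 to 114292359, minus strand), the close paralog of HDAC1 in the same complexes, had 19.1, 41.0, 31.9 and 37.2 TPM, a mean of 32.3 ± 9.55 (SD, n = 4). Here replicate 1 was the lowest, the opposite of HDAC1. HDAC8 (chromosome X, 71549366 to 71792953, minus strand), a class I enzyme that works outside the large complexes and deacetylates the cohesin subunit SMC3, had 15.3, 6.95, 6.98 and 9.42 TPM, a mean of 9.66 ± 3.93 (SD, n = 4). Its level depended on the length taken for the gene. The deposited length is 3635 bases, the union of its annotated exons is 22986 bases, and with the latter the mean was 2.44 TPM (3.72 with the exons of protein-coding transcripts).

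Among class IIa genes, HDAC7 was the most abundant in 3 of the 4 replicates. HDAC7 (chromosome 12, 48176493 to 48213763, minus strand), a class IIa corepressor also known from endothelial and lymphoid cells, had 18.0, 68.7, 36.0 and 63.9 TPM, a mean of 46.7 ± 23.9 (SD, n = 4). The highest replicate was 3.82 times the lowest. HDAC5 (chromosome 17, 42154121 to 42201014, minus strand), a kinase-regulated repressor of MEF2, had 19.1, 11.9, 8.33 and 18.4 TPM, a mean of 14.4 ± 5.20 (SD, n = 4). HDAC7 therefore stood at 0.941 times HDAC5 in replicate 1 and at 5.77, 4.32 and 3.47 times in replicates 2 to 4.

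HDAC9 (chromosome 7, 18126565 to 19042039, plus strand), another MEF2 corepressor, had 7.36, 9.87, 8.50 and 6.02 TPM, a mean of 7.94 ± 1.64 (SD, n = 4). It was the only member whose replicate 1 lay within the range of the others. HDAC4 (chromosome 2, 239969864 to 240322643, minus strand), the class IIa member best known from chondrocytes and muscle, had 1.75, 8.23, 4.21 and 7.54 TPM, a mean of 5.43 ± 3.02 (SD, n = 4). It was the lowest of the 10 in replicates 1 and 3, whereas HDAC8 was lowest in replicate 2 and HDAC9 in replicate 4. The level of HDAC4 exceeded that of 16.3% of detected genes.

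The class IIb genes lay close together on average and changed places between libraries. HDAC10 (chromosome 22, 50683612 to 50689834, minus strand) had 10.2, 30.1, 14.2 and 26.0 TPM, a mean of 20.1 ± 9.46 (SD, n = 4). HDAC6 (chromosome X, 48659784 to 48683392, plus strand) had 23.2, 13.7, 9.70 and 19.0 TPM, a mean of 16.4 ± 5.93 (SD, n = 4). HDAC6 was the higher of the pair in replicate 1 and HDAC10 in replicates 2 to 4.

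The order of the mean levels was HDAC1, HDAC3, HDAC7, HDAC2, HDAC10, HDAC6, HDAC5, HDAC8, HDAC9 and HDAC4. Each of the 9 pairs of neighbours was compared within replicates on the log2(TPM + 1) scale by an exact permutation test that flips signs (two-sided), which with 4 replicates cannot go below p = 0.125 (0.225 after Benjamini-Hochberg adjustment over the 9 pairs). The pairs and their direction came from the means of these same libraries, so a positive mean difference was largely set in advance. In 5 pairs the difference had the same sign in all replicates and its mean was larger than its SD. HDAC1 exceeded HDAC3 by 1.29 ± 0.40 and HDAC3 exceeded HDAC7 by 1.02 ± 0.93 (SD, n = 4, each p = 0.125, exact test), and only in these 2 pairs did the ranges of TPM not overlap. The other 3 were HDAC2 over HDAC10 (0.72 ± 0.32), HDAC6 over HDAC5 (0.17 ± 0.10) and HDAC5 over HDAC8 (0.53 ± 0.32). With the union of annotated exons as length, the mean of HDAC5 (15.96 TPM) was above that of HDAC6 (14.63), so the direction of that pair rests on the length.

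The remaining 4 pairs of neighbours did not differ beyond their spread. HDAC7 exceeded HDAC2 by 0.40 ± 0.42, HDAC10 exceeded HDAC6 by 0.23 ± 0.94, HDAC8 exceeded HDAC9 by 0.21 ± 0.67 and HDAC9 exceeded HDAC4 by 0.61 ± 0.81 on the log2(TPM + 1) scale. Without replicate 1, 7 of the 9 pairs kept 1 sign in all 3 replicates and had a mean above the SD, HDAC7 over HDAC2 (0.55 ± 0.33) and HDAC10 over HDAC6 (0.68 ± 0.35) among them. With 3 replicates the smallest exact p is 0.25.

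Summed by class, class I transcripts predominated. The 4 class I genes summed to 425, 329, 270.1 and 340.2 TPM, the 4 class IIa genes to 46.2, 98.8, 57.0 and 95.8, and the 2 class IIb genes to 33.4, 43.8, 23.9 and 45.0. Class I thus made up 84.2%, 69.7%, 76.9% and 70.7% of the family's TPM. HDAC1 alone contributed 59.8% in replicate 1 and 41.5% to 43.7% in replicates 2 to 4. HDAC7 contributed 3.56% in replicate 1 and otherwise 10.3% to 14.6%.

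**Figure D2:**
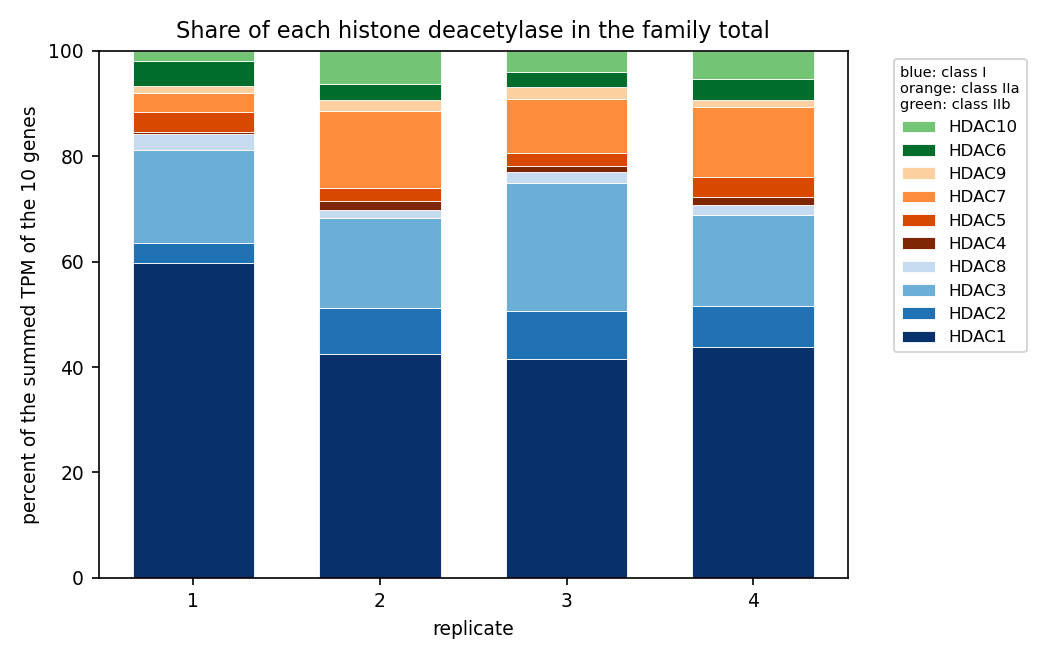
Stacked bars give the percent of the summed TPM of the 10 genes that each gene contributed, 1 bar per replicate, with class I in blue, class IIa in orange and class IIb in green. Class I fills 69.7% to 84.2% of each bar, with HDAC1 largest in every replicate, and the HDAC7 segment is thinnest in replicate 1, at 3.56%.

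On the log2 scale of the ratio of summed TPM, class I exceeded class IIa by 2.25 ± 0.67 and class IIb by 3.25 ± 0.39 (SD, n = 4). The ratio of class I to class IIa was 9.20 in replicate 1 and no more than 4.73 in replicates 2 to 4, so the mean log2 ratio without replicate 1 was 1.94 ± 0.27. In counts without length correction it was 1.03 ± 0.49. Against class IIb it was 3.11 ± 0.34 without replicate 1. Class IIa exceeded class IIb by 1.00 ± 0.36, and by 1.17 ± 0.08 without replicate 1. The class IIb sum holds 2 genes and the sums of class I and class IIa hold 4 each. A ratio to class IIb therefore also reflects the number of genes and does not show a higher level per gene. Of the mean class IIa sum of 74.5 TPM, HDAC7 alone had 46.7. In all, 6 ratios were tested, those of paralogs and sirtuins below included, each with the same sign in 4 of 4 replicates. For each, flipping signs exactly (a two-sided permutation test) gave p = 0.125, adjusted p = 0.125, the smallest value this design allows.

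The paralogs HDAC1 and HDAC2 differed in every library. Per kilobase, HDAC1 had 15.8 times the reads of HDAC2 in replicate 1 (95% Clopper-Pearson interval 15.2 to 16.4), and 4.88 (4.60 to 5.18), 4.57 (4.31 to 4.84) and 5.65 (5.34 to 5.98) times in replicates 2 to 4. The interval of replicate 1 did not meet those of the others. The log2 ratio was 2.74 ± 0.84 over 4 replicates and 2.33 ± 0.16 without replicate 1. It fell to 1.01 in counts without length correction, since the deposited length of HDAC2 is 6929 bases and that of HDAC1 is 2091. With the union of annotated exons as length it was 2.97, and with the exons of protein-coding transcripts 3.37.

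Per kilobase, HDAC4 was below its class IIa paralog HDAC5 in every library. The ratio per kilobase was 0.0917 in replicate 1 (0.0821 to 0.102). It was 0.691 in replicate 2 (0.605 to 0.788), 0.506 in replicate 3 (0.436 to 0.586) and 0.410 in replicate 4 (0.365 to 0.460). The log2 ratio was -1.56 ± 1.29 over 4 replicates and -0.94 ± 0.38 without replicate 1, so the size of this difference rested on that library. Without length correction it was -0.81, and in replicate 2 HDAC4 then had more reads than HDAC5 (491 against 422).

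For scale, the 7 sirtuins summed to 163, 152, 174 and 153 TPM (160.5 ± 10.2, SD, n = 4), and the 10 HDAC genes to 505, 471, 351 and 481 (452 ± 68.8). The family was thus 3.10, 3.09, 2.02 and 3.15 times the sirtuin sum, with replicate 3 the lowest. The log2 ratio was 1.48 ± 0.31 over 4 replicates and 1.43 ± 0.36 without replicate 1. HDAC1 and HDAC3 had higher means than any sirtuin. SIRT7, a nuclear sirtuin, followed them by mean with 59.7 ± 14.1 TPM (SD, n = 4). It had 47.1, 55.8, 80.0 and 56.0 TPM in replicates 1 to 4, and HDAC7 was above SIRT7 in replicates 2 and 4. SIRT6, a sirtuin of chromatin, had a mean of 34.1, between HDAC7 and HDAC2. Without replicate 1 the means of SIRT7 (63.9) and SIRT6 (40.2) kept these places.

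Over all 4 replicates, SIRT2 (21.4) and SIRT3 (20.2) lay between HDAC2 and HDAC10 by mean TPM, and SIRT1 (15.5) between HDAC6 and HDAC5. Without replicate 1, SIRT2 (16.5) and SIRT3 (20.4) lay below HDAC10 (23.5), and SIRT1 (11.4) below HDAC5 (12.9). SIRT5 had a mean of 8.07 TPM, close to HDAC9, and without replicate 1 a mean of 6.02, below HDAC4 (6.66). SIRT4, a mitochondrial sirtuin, had a mean of 1.55 TPM (1.28 without replicate 1), below the mean of every HDAC gene. In replicate 1, however, SIRT4 (2.35) was above HDAC4 (1.75). The level of SIRT4 rested on 13, 11 and 11 counts in replicates 2 to 4. HDAC11, the sole class IV enzyme, had 12.2, 7.46, 6.68 and 9.85 TPM, and its mean of 9.04 lay just below that of HDAC8.

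Replicate 1 differed from the other libraries in both directions. Its TPM lay above the range of replicates 2 to 4 for 5 members (HDAC1, HDAC3, HDAC5, HDAC6 and HDAC8), as it did for 40.2% of detected genes, and below that range for 4 members (HDAC2, HDAC4, HDAC7 and HDAC10), as for 37.4%. These counts are near the background. The ratio of replicate 1 to the mean of the others ran from 1.97 for HDAC8, 1.65 for HDAC6 and 1.63 for HDAC1 down to 0.320 for HDAC7 and 0.263 for HDAC4. With upper-quartile or median-of-ratios scaling the same genes except HDAC3 were above and the same 4 below. With TPM over all genes, where protein-coding genes took 31.0% of the total in replicate 1, all 10 were below, and the median of detected genes was itself lower there by a log2 difference of -1.31.

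GC content of the transcripts moved with replicate 1. Across 11889 detected genes, the Spearman correlation of GC content with the log2 difference of replicate 1 from the others was -0.51, a description across genes, which are not independent and share these libraries. Over the 10 members it was -0.36. HDAC7 (62.3% GC), HDAC10 (66.9%) and HDAC4 (55.1%) were low in replicate 1 and HDAC8 (40.8%) was high. HDAC2 (38.2%) was low, while HDAC5 (61.2%), HDAC6 (57.7%), HDAC3 (52.7%) and HDAC1 (49.4%) were high. Of the members above the range of the others in replicate 1, only HDAC8 was below the median GC content of detected genes, 49.1%. The part of GC content or depth in these differences was not tested.

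**Figure D3:**
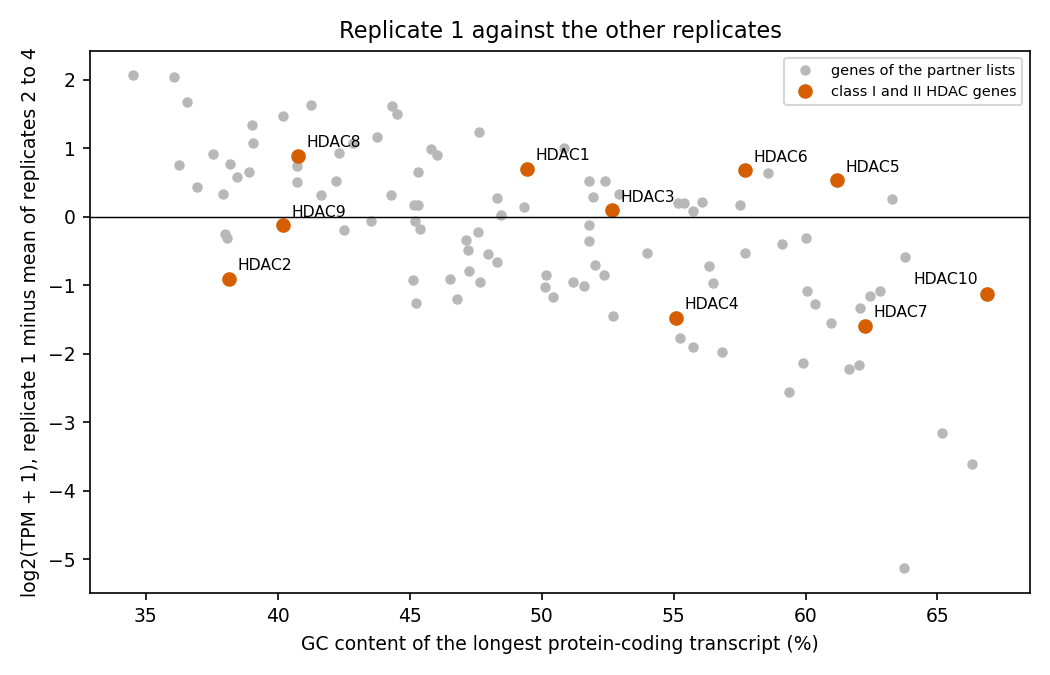
Difference of replicate 1 from the mean of replicates 2 to 4 in log2(TPM + 1) against the GC content of the longest protein-coding transcript (percent), for the 10 HDAC genes (orange, named) and the genes of the partner lists (grey). HDAC1, HDAC3, HDAC5, HDAC6 and HDAC8 lie above 0 and HDAC2, HDAC4, HDAC7, HDAC9 and HDAC10 below it. HDAC2 is at 38.2% GC and HDAC5 at 61.2%.

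Replicate 3 was the lowest of replicates 2 to 4 for 7 members (HDAC1, HDAC2, HDAC4, HDAC5, HDAC6, HDAC7 and HDAC10), beside 60.0% of detected genes. With median-of-ratios scaling this held for 6 members and 40.6% of detected genes. Across 11889 detected genes, gene length had a Spearman correlation of -0.52 with the log2 difference of replicate 3 from replicates 2 and 4. Over the 10 members it was 0.10. The part of length in the differences of replicate 3, the ratio to the sirtuins included, was not tested.

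The complexes in which these enzymes work were examined through 12 lists of 95 genes. Of these, 93 had a mean TPM above 1, and the median of those 93 was 46.2 TPM against 24.5 for all detected genes. The share of all protein-coding genes above 1, 63.3%, stands beside this count and those of the lists below. The means of 14 were above that of HDAC1. Replicate 1 was above the range of the others for 37 of the 95 (38.9%) and below it for 38 (40.0%), near the 40.2% and 37.4% of all detected genes.

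The listed partners of HDAC1 and HDAC2 were all detected. In the NuRD complex, which joins deacetylation to nucleosome remodelling, all 11 genes passed, from MTA2, a scaffold that binds HDAC1, with 220 ± 19.6 TPM to its relative MTA3 with 6.20 ± 1.60 (SD, n = 4). The remodelling ATPase CHD4 had 114 ± 25.4. MTA2 was 243, 220.2, 222 and 195 in replicates 1 to 4, whereas MTA1 was 21.6 in replicate 1 and otherwise 73.6 to 123.

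In the SIN3 complex all 13 genes were detected, from the subunit BRMS1 (199 ± 49.2 TPM) to the reader ING2 (6.70 ± 1.57), with the scaffold SIN3A at 52.8 ± 15.4. The CoREST complex held KDM1A, the lysine demethylase LSD1, at 354 ± 148 TPM, the highest of its 7 genes and above HDAC1, with 568 in replicate 1 and 229 to 310.0 in the others. Of its scaffolds, RCOR1 had 35.2 ± 8.39 and RCOR2 1.45 ± 1.25. The MiDAC genes DNTTIP1, ELMSAN1 and TRERF1 had means of 82.7, 32.3 and 22.9 TPM, and all 3 were below the range of the others in replicate 1, beside 37.4% of all detected genes.

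The HDAC3 complex NCoR ranged from GPS2 (164 ± 28.0 TPM) to TBL1X (6.55 ± 3.64). Its scaffold NCOR1, which activates HDAC3, had 42.1, 50.1, 21.4 and 61.3 TPM. Replicate 3 was the lowest. HDAC3 itself spread far less across the same libraries, as given above.

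Cohesin, whose SMC3 subunit is deacetylated by HDAC8, was detected with all 7 of its listed genes, from RAD21 (142 ± 37.2 TPM) to the acetyltransferase ESCO1 (19.1 ± 18.0). SMC3 had 85.1, 66.6, 18.6 and 76.1 TPM. Replicate 1 was above the others for 6 of the 7, beside 40.2% of all detected genes, and replicate 3 was the lowest of replicates 2 to 4 for all 7, beside 60.0%.

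**Figure D4:**
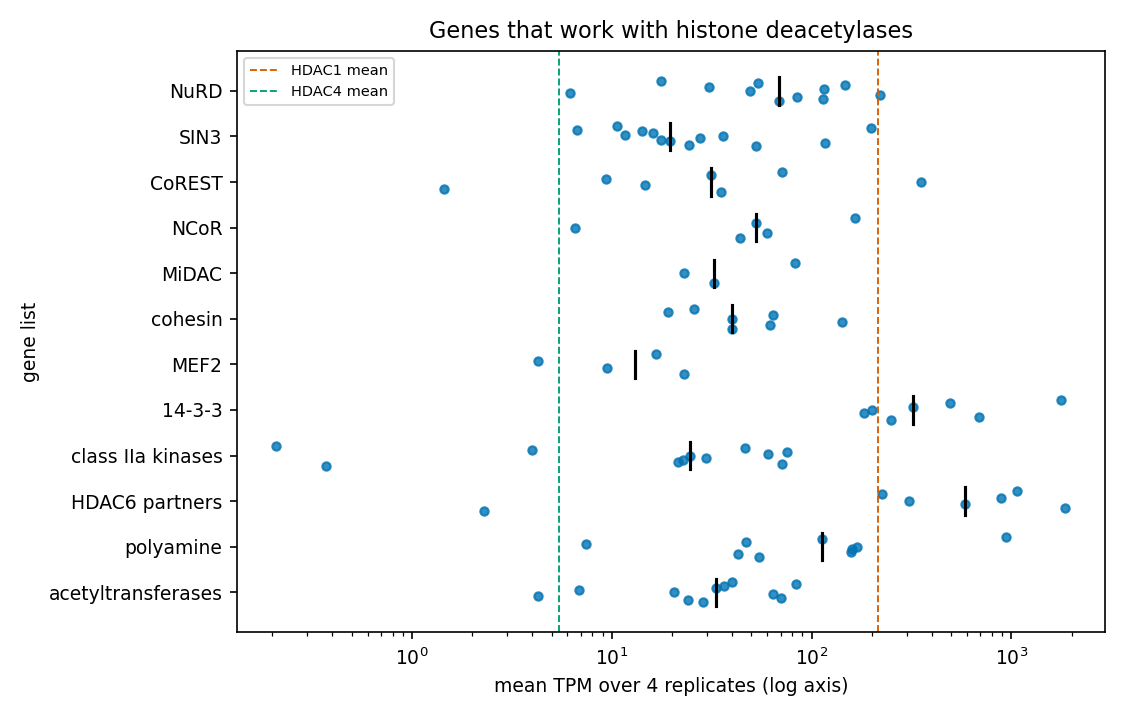
Mean TPM over 4 replicates (log axis) of the 95 genes in 12 lists, 1 point per gene, with the list median as a black bar and the means of HDAC1 (214, orange) and HDAC4 (5.43, green) as dashed lines. The 14-3-3 genes and the HDAC6 partners have the highest medians, 321 and 588, and the MEF2 genes the lowest, 13.1.

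For class IIa, the 4 MEF2 factors had a median of 13.1 TPM, from MEF2A (23.0 ± 17.1) to MEF2C (4.29 ± 3.28). MEF2B had 4 counts in replicate 1 (0.113 TPM) and 11.6 to 13.3 TPM in the others. All 7 genes of 14-3-3 proteins were detected, from SFN (stratifin, an epithelial 14-3-3) with 1764 ± 654 TPM to YWHAG with 183 ± 66.1, and 5 were below the range of the others in replicate 1, beside 37.4% of all detected genes. Of 11 kinases that phosphorylate class IIa enzymes, 9 were detected, from MARK3 (75.2 ± 17.4) to CAMK2D (4.01 ± 2.29). The means of PRKD1 (0.370) and CAMK4 (0.210) were below 1 TPM, and the related PRKD2 had 70.8 ± 35.4.

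For class IIb, the listed partners and substrates of HDAC6 were led by the alpha-tubulin gene TUBA1B with 1860.05 ± 588 TPM, and TUBA1A was lowest with 2.30 ± 0.894. Tubulin genes are near-identical in sequence, so the split of reads between them is uncertain. The actin-binding substrate cortactin (CTTN) had 308 ± 64.4 and the ATPase VCP, which binds HDAC6, had 225 ± 42.4.

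Of the polyamine genes beside HDAC10, all 9 were detected, from the antizyme OAZ1 (939.5 ± 206 TPM) to the oxidase PAOX (7.47 ± 1.15). Spermidine synthase (SRM) had 4.95 TPM in replicate 1 and 141 to 265 in the others.

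Reads from neighbouring genes could bear on some counts, since the use of strand in counting is not given in the sources used here. In the files' positions 6 members overlap another gene, and only HDAC7 a protein-coding one. SLC48A1 lies on the opposite strand and shares 44 bases with HDAC7, and it had 2108, 1417, 985 and 1254 counts. The overlapping genes of other types had at most 30 counts in a library.

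The genes whose log2(TPM + 1) in the 4 replicates lay nearest to that of HDAC1, out of 12155 detected genes that are not members, were F11R (root mean square difference 0.10), NPTN (0.16) and SDC4 (0.16). F11R had 344, 189, 145 and 214 TPM. These are likenesses over 4 libraries and carry no test.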

How the data were processed

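RNA-seq was measured in 4 libraries of untreated HaCaT. The authors deposited raw counts per gene with gene lengths for each, along with RPKM for replicates 1 and 2 and TPM for replicates 3 and 4. The deposited RPKM and TPM equalled values recomputed from counts and lengths within 6.66e-05%. Submitters' processing notes name HISAT2, HISAT, TopHat2, Bowtie2 and the build hg19. Versions, roles, the counting program, its strand setting and the annotation are not given in the sources used here.

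TPM was computed over the 19233 protein-coding genes from the deposited counts and lengths. Raw libraries had 17056035 to 73082279 counts, where 3 counts equal 0.0410 to 0.176 counts per 1000000. Within-replicate differences of log2(TPM + 1) or log2 ratios were tested by exact permutation of signs, two-sided, with Benjamini-Hochberg adjustment. With 1 condition, no differential test was run. Count ratios have 95% Clopper-Pearson intervals. GC content, exon lengths and coding stretches came from GENCODE release 29 (GRCh38). Exon lengths matched 97.1% of protein-coding genes by name, GC content 97.7% of detected ones.

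The members, lists and tests were chosen with earlier results of these data known. The genes named are the members, the sirtuins and HDAC11, the highest, lowest and defining genes of each list, overlapping genes and the 3 nearest to HDAC1. MTA1, SMC3, MEF2B, PRKD2, CTTN, VCP, SRM, DNTTIP1, ELMSAN1, TRERF1, KAT2A and NAA60 and the markers named singly were chosen after their values were seen or as complex subunits. Alternatives were TPM over all genes, counts per 1000000 (CPM), exon lengths, upper-quartile and median-of-ratios scaling, a pseudocount of 0.1, other detection limits and leaving out each replicate. TPM and the position of replicate 1 against the range of the others were checked on simulated counts. The exact test was checked on simple made-up inputs, and the other calculations were not tested in this way. 1 gene of the lists and 1 marker are not reported by name here. Calculations used SciPy 1.17.1, NumPy 2.4.6 and pandas 2.3.3 under Python 3.11.15, and plots matplotlib 3.10.9.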

Additional observations from a re-analysis of the deposited data

Results flagged for a closer look

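The ratio of the summed TPM of the 10 HDAC genes to that of the 7 sirtuins was 2.02 in replicate 3, far from 3.09 to 3.15 in the other replicates. The ratio of HDAC1 to HDAC2 per length was 15.8 in replicate 1, far from 4.57 to 5.65 in replicates 2 to 4. Dixon's 95% limit for 4 samples was applied to 20 sets of values, of which 2 passed it, and chance alone gives about 1 in 20. Outside the main measurement, the antisense RNA HDAC11-AS1 had 16 counts in replicate 1, 3 in replicate 4 and 0 in replicates 2 and 3. The pseudogene HDAC1P2 had 7 counts in replicates 1 and 2, 5 in replicate 3 and 0 in replicate 4. Both exceed 3 counts, the limit that a count of 0 allows.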

How the results depend on the processing

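Of 100 values of comparisons recomputed under an alternative, 95 were labelled the same and 5 moved. A ratio could lose the label only by changing sign, because no exact p of this design falls below the threshold of 0.05. The order was labelled by its number of neighbour pairs with 1 sign, so a changed order could also count as the same. By construction, TPM over all genes leaves every ratio as it was, and dropping the filter on low values leaves the counts of members. The label therefore says little about the size of a ratio. No ratio of classes, paralogs or families turned its direction, but places in the order of the genes and the side on which replicate 1 lay did, as given below. The summed TPM of the 10 genes, 452, was 332 with TPM over all genes and 357 with the union of annotated exons as length, and it was 627 in CPM (counts per 1000000) without length correction, which is another unit. With TPM over all genes, replicate 1 was above the others for 0 members and below them for 10, in place of 5 and 4, since protein-coding genes share a smaller part of that library. Of 100 values of single genes, 17 moved.

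The order of the means depended on length: in CPM HDAC2 was in place 2, HDAC3 in place 4, below HDAC7, and HDAC9 in place 5. With the union of annotated exons HDAC5 was above HDAC6, and with either exon length from GENCODE HDAC8 was last. Without length correction the log2 ratio was 1.03 for class I to class IIa, 2.55 for class I to class IIb, 1.52 for class IIa to class IIb, 1.01 for HDAC1 to HDAC2 and -0.81 for HDAC4 to HDAC5, the last with exact permutation p = 0.25, since replicate 2 had the other sign. HDAC9 was above HDAC8 without replicate 1, and HDAC6 above HDAC10 without replicate 2. Leaving out each replicate in turn gave a log2 ratio of class I to class IIa of 1.94 to 2.42, of HDAC1 to HDAC2 of 2.33 to 2.92 and of HDAC4 to HDAC5 of -1.91 to -0.94. The number of neighbour pairs with 1 sign in every replicate was 5 to 7 over the alternatives, in CPM and with exon lengths in either direction. The alternatives for replicate 3 were chosen after seeing the data. No paired analysis was possible because the series has 1 group and replicate numbers join no samples across groups; the tests here compare genes within a library. The lowest member count, 168, gives a counting interval of 144 to 195, or 5.94 to 8.09 TPM, narrower than the range of HDAC8 across libraries, 6.95 to 15.3 TPM.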

Other observations

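Lysine acetyltransferases add the mark that histone deacetylases remove. The 11 genes of this list all had a mean TPM above 1 in HaCaT, beside 63.3% of all protein-coding genes. Their median was 33.2 TPM, and none of their means exceeded that of HDAC1. HAT1, which acetylates newly made histone H4, was the highest with 104, 82.3, 59.9 and 88.6 TPM (83.7 ± 18.2, SD, n = 4), and KAT2B (PCAF) the lowest with 4.26 ± 3.63. EP300 and CREBBP, the p300 and CBP coactivators, had 28.6 ± 13.2 and 24.1 ± 13.5. KAT2A (GCN5), the paralog of KAT2B, had 19.1 TPM in replicate 1 and 78.3 to 95.6 in the others, and NAA60 had 7.76 against 45.2 to 57.9, while KAT2B had 9.65 against 1.89 to 3.12. Summed over the 11 genes, TPM was 374, 454, 368 and 454 in replicates 1 to 4, beside 505, 471, 351 and 481 for the 10 HDAC genes.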
